A study of Mus musculus with 6 samples.

Results

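*Thada*, *Ftsj1* and *Wdr6* encode the proteins described here, a tRNA 2′-O-methyltransferase and 2 proteins that direct it to its substrates. They were chosen by gene symbol and make up 3 of the 16640 genes counted in each library, and all 3 were expressed highly enough to be tested among 12516 genes. FTSJ1 transfers a methyl group to the ribose of bases in the anticodon loop of tRNA. Together with THADA it modifies the first base of the anticodon loop, and together with WDR6 it modifies the wobble base, as yeast Trm7 does with the partners Trm732 and Trm734. THADA is also studied in β-cells for its link to diabetes risk and to calcium handling in the endoplasmic reticulum. The question put to the data was whether the mRNAs of the methyltransferase and of WDR6 follow that of *Thada*, between conditions and between replicate 3 and replicates 1 and 2.

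RNA was sequenced from MIN6, an insulin-producing β-cell line from a mouse insulinoma. *Thada*-activated cells carried dCas9-VP64 and a guide RNA to the *Thada* promoter with the MS2-P65-HSF1 activators, both delivered by lentivirus and selected with puromycin and then G418. Control cells carried dCas9 and a non-targeting guide RNA. The 3 control and 3 *Thada*-activated libraries come from selected lines, and the labels do not say whether the replicates are separate cultures. The paper's reporting summary gives at least 3 independent experiments for its in vitro work in general, without naming the RNA libraries. The p-values therefore measure only the spread between these libraries, which may be technical. The activated promoter drives the gene's own transcript and a single guide RNA was used. Control replicates 1, 2 and 3 held 17272834, 17166511 and 17689611 counts. *Thada*-activated replicates 1, 2 and 3 held 17727004, 17385036 and 17224631 counts.

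In either condition the replicate 3 library stood apart. On the first principal component of log2 values, which carried 83.8% of the variance, control replicate 3 scored 48.6 and *Thada*-activated replicate 3 scored 43.4, and the other 4 libraries lay between -23.5 and -22.1. Of 12516 tested genes, 3893 (31.1%) were called between replicate 3 and replicates 1 and 2, by edgeR's quasi-likelihood test with condition in the model, at a Benjamini-Hochberg adjusted p under 0.05 and a fold change over 1.5. The contrast between conditions and the ratios of the members are therefore also given for replicates 1 and 2 alone.

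The cells carried β-cell markers at high levels. The 9 markers summed to between 94129.7 and 127222 CPM (counts relative to the library total), and *Ins2* was the most abundant in every library. The sum was highest in the replicate 3 libraries, where control cells had 127222 CPM and activated cells 114132 CPM, and *Ins2* alone had 101539 and 83614 CPM of these. *Iapp*, the next most abundant, was lowest there, at 20347 and 24906 CPM against 31397 to 36879 CPM in the other libraries. Of 8 tested markers, 6 had a log2 fold change under 0 in replicate 3 (median -0.49). *Slc2a2*, the β-cell glucose transporter, was close to the floor with between 1 and 9 counts per library. Of the markers of other cell types, 9 of 13 were counted and summed to between 114 and 198 CPM. *Sst*, the somatostatin gene of delta cells, was the most abundant of them in every library, and *Ghrl*, *Cel* and *Sox9* had at most 3 counts in every library.

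*Thada* is a minus-strand gene on chromosome 17 (GRCm38), between bases 84190076 and 84466205, and its coding transcript has 38 exons and 1938 codons. *Ftsj1*, also on the minus strand, spans 8238668 to 8252406 of the X chromosome and encodes 324 codons in its longest coding transcript. *Wdr6*, a minus-strand gene too, spans 108572311 to 108578739 of chromosome 9 and encodes 1125 codons. The exons of *Wdr6* and of *Dalrd3*, a gene on the plus strand whose protein takes part in tRNA methylation, overlap by 383 bases, from 108572392 to 108572774, all of them outside the *Wdr6* coding sequence. The deposited counts of this pair were fractional in every library and summed to a whole number in each (within 0.01). RSEM, which the labels name, divides reads that fit several transcripts among them, and whether the counting used strand is not given in the sources used here. *Thada* also shares ground in the authors' table, where its interval starts at the same base as *Zfp36l2* and spans it. Both are on the minus strand, and their deposited counts were whole numbers in every library (within 0.01).

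The guide RNA of the activated cells was directed to the promoter, and the 172 bases before the outermost annotated start of *Thada* are shown for that reason, from chr17:84466287-84466458 on the minus strand (RefSeq window, GRCm38.p6). The capitals mark TGACGTCA, a palindromic motif whose letters were picked after the window was read. They do not mark the site of the guide RNA. The guide sequence in the paper's methods lies in this stretch in lower case, as atcaagaactgtttagtcgc.
Thada: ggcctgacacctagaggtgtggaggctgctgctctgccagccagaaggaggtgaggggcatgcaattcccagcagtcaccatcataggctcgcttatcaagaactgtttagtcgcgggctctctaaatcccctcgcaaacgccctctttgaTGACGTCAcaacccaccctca
The motif ends 13 bases before that start. It was found, on either strand, in the 300-base window of *Thada* and not in those of *Ftsj1* and *Wdr6*, and in 1.79% of 32851 windows of this length. CCAAT, searched on both strands, was in the windows of all 3 genes and in 37.4% of all windows. GC content was 59.7% in the *Thada* window, 52.0% in the *Ftsj1* window and 62.0% in the *Wdr6* window.

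*Thada*, the targeted gene, was counted 479, 497 and 300 times in control replicates 1, 2 and 3, and 1018, 977 and 864 times in the *Thada*-activated replicates. The deposited FPKM values, scaled by transcript length and library size, were 3.62, 3.90 and 2.34 in control and 7.48, 7.32 and 6.85 in *Thada*-activated libraries. Each activated library was above each control library, so the conditions did not overlap, as was true of 5.43% of tested genes in CPM. The lowest control value and the lowest activated value were both in replicate 3. In CPM the mean was 24.5 ± 6.60 (SD, n = 3) in control and 54.6 ± 3.89 (SD, n = 3) in *Thada*-activated libraries. In bulk RNA, a change in the share of cells that express a gene and a change in RNA per cell cannot be told apart. By edgeR the log2 fold change between conditions was 1.13 (standard error 0.22, 95% interval 0.60 to 1.66), with an adjusted p of 1 (unadjusted p = 0.00196). That is a fold change of 2.19 with an interval of 1.52 to 3.17. With this model 0 of 12516 genes (0.0%) passed, while 101 had an unadjusted p under 0.05 and DESeq2 called 5, *Thada* among them (adjusted p = 0.0104). With the replicate number as a block, *Thada* rose by 1.15 on the log2 scale (standard error 0.10, 95% interval 0.94 to 1.37, adjusted p = 0.00041 in edgeR), and 19 genes were called (0.152%). *Thada* was higher in 3 of 3 pairs of libraries with the same number, as were both partners in CPM. The rises of the partners were at most 1.14-fold in any pair. The share of all tested genes higher in 3 of 3 pairs was not counted.

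*Ftsj1*, the methyltransferase, was counted 492, 465 and 407 times in control replicates 1, 2 and 3, and 525, 535 and 401 times in the *Thada*-activated replicates. Its FPKM values were 8.73, 8.33 and 7.06 in control and 9.08, 9.43 and 7.08 in *Thada*-activated libraries. The conditions overlapped, and within each the replicate 3 library was lowest. The mean was 26.2 ± 2.85 CPM (SD, n = 3) in control and 27.9 ± 4.03 CPM (SD, n = 3) in *Thada*-activated libraries. Activated over control, the log2 value was 0.07 (standard error 0.16, 95% interval -0.32 to 0.45, adjusted p = 1 in edgeR). With the replicate block it was 0.06 (standard error 0.08, 95% interval -0.11 to 0.24, adjusted p = 0.824). Activated over control, *Ftsj1* was 1.04-fold, 1.14-fold and 1.01-fold in replicates 1, 2 and 3. The upper bound of the blocked interval corresponds to a 1.18-fold rise, below the lower bound of 1.92-fold for *Thada* in the same fit.

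*Wdr6*, the partner for the wobble base, was estimated at 3455.35, 3343.34 and 1614.7 counts in control replicates 1, 2 and 3, and at 3756.19, 3689.01 and 1761.3 counts in the *Thada*-activated replicates. Its FPKM values were 50.85, 49.64 and 23.23 in control and 53.85, 53.91 and 25.81 in *Thada*-activated libraries. The values fell into a high pair and a low library in each condition, the low one being replicate 3, and the conditions overlapped. The mean was 162 ± 61.3 CPM (SD, n = 3) in control and 175 ± 63.4 CPM (SD, n = 3) in *Thada*-activated libraries. The log2 fold change between conditions was 0.10 (standard error 0.41, 95% interval -0.90 to 1.09, adjusted p = 1 in edgeR). With the replicate block it was 0.10 (standard error 0.06, 95% interval -0.03 to 0.23, adjusted p = 0.602). Activated over control, *Wdr6* was 1.06-fold, 1.09-fold and 1.12-fold in replicates 1, 2 and 3.

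Neither partner passed between conditions in edgeR or DESeq2, with or without the block. *Thada* passed with the block in edgeR and with or without it in DESeq2. In replicates 1 and 2 alone, a fit chosen after seeing the data, the log2 fold changes were 0.99 for *Thada*, 0.11 for *Ftsj1* and 0.09 for *Wdr6*, and *Thada* was the member called.

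**Figure D1:**
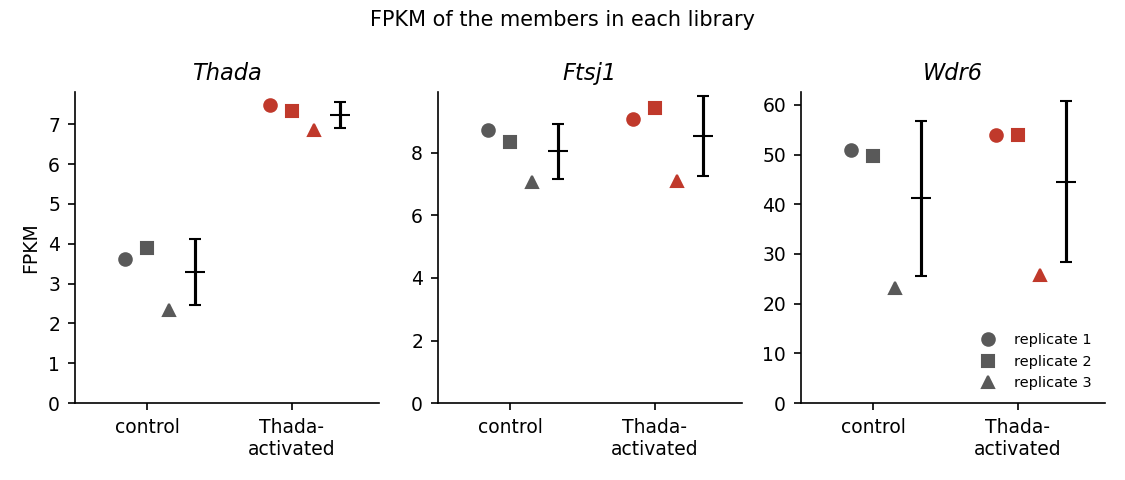
FPKM of *Thada*, *Ftsj1* and *Wdr6* in the 3 control and 3 *Thada*-activated libraries, on separate vertical axes that start at 0. Points are libraries, with the replicate number as the shape, and the bar beside each group is the mean and SD (n = 3). The *Thada* groups are apart, and the *Wdr6* points of replicate 3 lie at 23.23 and 25.81 against 49.64 to 53.91 in the other libraries.

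Per length, the order of the levels was the same in both conditions. In control libraries *Thada* was lowest with a mean of 3.29 ± 0.832 FPKM (SD, n = 3). *Ftsj1* followed with 8.04 ± 0.872 FPKM (SD, n = 3). *Wdr6* was highest with 41.2 ± 15.6 FPKM (SD, n = 3). In *Thada*-activated libraries the means were 7.22 ± 0.327 FPKM for *Thada* and 8.53 ± 1.27 FPKM for *Ftsj1* (SD, n = 3), and the 2 genes overlapped, since the lowest *Ftsj1* library, at 7.08 FPKM, was below 2 of the *Thada* values. *Wdr6* had 44.5 ± 16.2 FPKM (SD, n = 3) there.

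The proportion of the methyltransferase to *Thada* was lower in the *Thada*-activated libraries. Per library, the ratio of *Ftsj1* FPKM to *Thada* FPKM was 2.41, 2.14 and 3.02 in control replicates 1, 2 and 3 and 1.21, 1.29 and 1.03 in *Thada*-activated replicates 1, 2 and 3. All control ratios exceeded all activated ratios, and the ratio was highest in control replicate 3 and lowest in *Thada*-activated replicate 3. The mean log2 difference, activated minus control, was -1.09 (two-sided exact permutation test, p = 0.1, the lowest value possible with 3 libraries against 3). The ratio of *Wdr6* FPKM to *Thada* FPKM was 14.0, 12.7 and 9.93 in control and 7.20, 7.36 and 3.77 in *Thada*-activated libraries. In both conditions this ratio was lowest in replicate 3. Its mean log2 difference, activated minus control, was -1.05 (exact permutation test, two-sided, p = 0.1). With the libraries taken as pairs, an exact sign-flip permutation test gave p = 0.25 for both ratios, the lowest value possible with 3 pairs. Without control replicate 3 the mean log2 differences were -0.95 for *Ftsj1* and -1.19 for *Wdr6*, and without *Thada*-activated replicate 3 they were -1.0 and -0.73. In replicates 1 and 2 alone, an alternative chosen after seeing the data, they were -0.86 and -0.88 (exact permutation test, p = 0.333 for both). Both ratios contain *Thada* itself, so they are no separate test of the partners.

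Between replicate 3 and replicates 1 and 2, *Wdr6* fell most of the 3 genes. Its mean was 96.8 ± 7.76 CPM (SD, n = 2) in the replicate 3 libraries and 205 ± 8.72 CPM (SD, n = 4) in the others, with no overlap, as was true of 72.1% of tested genes. The log2 fold change was -1.09 (standard error 0.06, 95% interval -1.21 to -0.97, adjusted p = 1.15e-09 in edgeR). *Wdr6* was thus among the genes called lower in replicate 3, which were 15.4% of those tested. Its level in replicate 3 was 53.8% below the mean of replicates 1 and 2 in control cells and 51.8% below it in *Thada*-activated cells.

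*Ftsj1* had 23.1 ± 0.193 CPM (SD, n = 2) in the replicate 3 libraries and 29.0 ± 1.58 CPM (SD, n = 4) in the others, again with no overlap. Its log2 fold change was -0.33 (standard error 0.08, 95% interval -0.50 to -0.16, adjusted p = 0.0019 in edgeR), which is a fold of 0.795 and less than the 1.5-fold limit. Replicate 3 was 17.2% below the mean of replicates 1 and 2 in control cells and 22.9% below it in *Thada*-activated cells.

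*Thada* stood at -0.42 on the log2 scale between replicate 3 and the others (standard error 0.10, 95% interval -0.63 to -0.21, adjusted p = 0.00168 in edgeR), also less than 1.5-fold. The 2 conditions were unequal: control replicate 3 was 40.2% below the mean of control replicates 1 and 2, and *Thada*-activated replicate 3 was 11.7% below its own. Without control replicate 3 the log2 fold change was -0.21, and without *Thada*-activated replicate 3 it was -0.73, which passed the 1.5-fold limit. Each of these leaves a single replicate 3 library, whose spread is assumed to be that of the other libraries.

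The test of the interaction of condition and replicate 3 asks whether the change in *Thada* differed between replicate 3 and the others. *Thada*-activated over control, *Thada* was 2.07-fold in replicate 1, 1.94-fold in replicate 2 and 2.96-fold in replicate 3. The interaction was 0.52 on the log2 scale (standard error 0.13, adjusted p = 0.00935 in edgeR), and 6.96% of tested genes had an adjusted p under 0.05 in this test. DESeq2 gave the same value with a standard error of 0.22, an unadjusted p of 0.017 and no adjusted p. Replicate 3 has 1 library per condition, so the spread in this test comes from replicates 1 and 2 alone. That leaves 2 residual degrees of freedom per gene, and edgeR combines the spread of each gene with that of the other tested genes. The edgeR p-values therefore rest largely on the other genes. Neither tool's p-values measure spread between replicate 3 libraries. *Ftsj1* had an interaction of -0.14 (standard error 0.15, adjusted p = 0.639 in edgeR). *Wdr6* had an interaction of 0.02 (standard error 0.10, adjusted p = 0.950 in edgeR). Whether the smaller drop of *Thada* in activated replicate 3 differs from the drops of its partners was not tested.

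**Figure D2:**
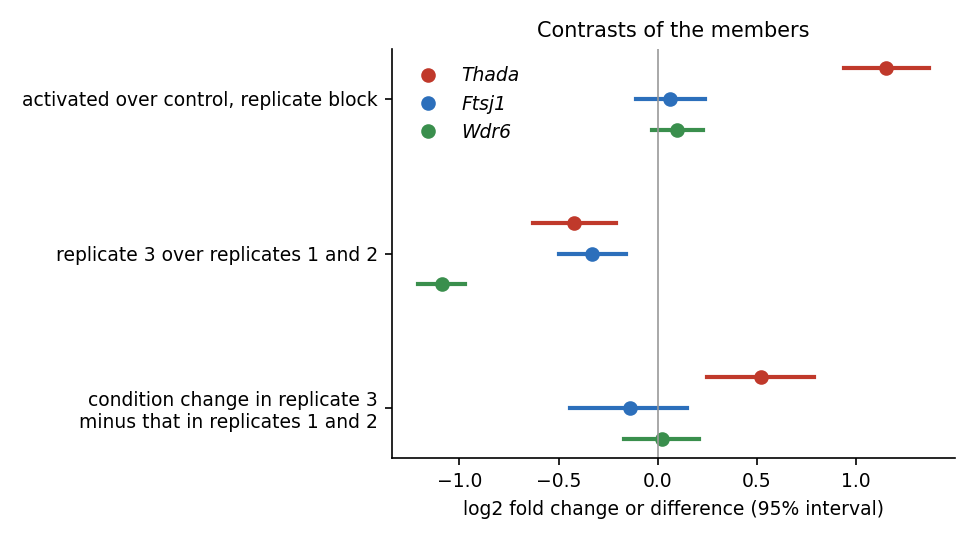
Log2 changes of *Thada*, *Ftsj1* and *Wdr6* (horizontal axis) in 3 contrasts of edgeR's quasi-likelihood fits over 6 libraries. Points are estimates and lines are 95% intervals, which for the interaction rest on the spread of replicates 1 and 2 alone. *Thada* is at 1.15 between conditions with the replicate block, and its partners at 0.06 and 0.10, while all 3 genes are below 0 in replicate 3, with *Wdr6* lowest at -1.09.

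The choice of scaling bears on the contrast of replicate 3. The authors' TPM, which scales the length-corrected values of every library to the same sum, shifted the median log2 fold change of all tested genes by -0.18. On log2(TPM + 0.1) with limma, a fit chosen after seeing the data, *Wdr6* had -1.27, *Thada* -0.57 and *Ftsj1* -0.51, each to be read against that median. Of the genes called in this fit, 69.8% were lower in replicate 3, against 49.4% of those called from counts. All 3 genes were lower in replicate 3 under the other scalings tried too.

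Summing *Wdr6* with *Dalrd3*, whose reads may be shared, gave 4281, 4149 and 2192 counts in control replicates 1, 2 and 3 and 4725, 4616 and 2369 counts in the *Thada*-activated replicates. *Wdr6* took 80.7%, 80.6% and 73.7% of these counts in control and 79.5%, 79.9% and 74.3% in *Thada*-activated libraries. The share was lower in replicate 3 in both conditions. The summed pair had a log2 fold change of -0.97 in replicate 3 and 0.11 between conditions with the block, in fits chosen after seeing the data. *Dalrd3* alone had -0.58 in replicate 3 (adjusted p = 2.86e-06 in edgeR).

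The genes next to the members were read from the authors' table. *Zfp36l2*, inside the authors' *Thada* interval, had a log2 fold change of 0.09 between conditions with the block (adjusted p = 0.771 in edgeR). *Plekhh2*, the next gene above *Thada* at a distance of 45597 bases, was counted at 50.4, 48.1 and 13.9 CPM in control and 54.5, 56.7 and 22.9 CPM in *Thada*-activated libraries. Between conditions with the block the log2 fold change of *Plekhh2* was 0.29 (unadjusted p = 0.00983, adjusted p = 0.309 in edgeR). It was higher in 3 of 3 pairs, a count not made over all tested genes. In replicate 3 its log2 fold change was -1.54 and called. *Slc38a5* had 0.20 between conditions with the block (unadjusted p = 0.00632, adjusted p = 0.280 in edgeR), and the other neighbours in that fit were *Mta3* (-0.01), *Porcn* (0.14), *Dalrd3* (0.14), *P4htm* (0.06) and *Ndufaf3* (-0.06). *Mta3*, next below, had a log2 fold change of 0.56 in replicate 3. *Slc38a5*, the neighbour of *Ftsj1* above it, had -1.64 in replicate 3, against -0.33 for *Ftsj1*. *Porcn*, on the other side of *Ftsj1*, had -0.04. *P4htm*, 155 bases from *Wdr6* in the authors' table, had -0.46 in replicate 3, and *Ndufaf3* had 0.21.

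The genes whose profile over the 6 libraries was most like that of each member were found by the root mean square difference of mean-centred log2 CPM, among 10712 tested genes with a mean of at least 5 CPM. For *Thada* these were *Arhgap36*, *Frmd8*, *Ssc5d*, *Mybpc1* and *Crip1*, with differences from 0.198 to 0.298. *Ftsj1* ranked 1536 for *Thada* and *Wdr6* ranked 3262. For *Ftsj1* the closest genes were *Mical3*, *Ppp4c*, *Mthfd1*, *Fam20c* and *Tsg101*, with differences from 0.016 to 0.026, and 1078 genes had one under 0.1. For *Wdr6* they were *Ap3b1*, *Frmd4b*, *Exosc10*, *Tbc1d7* and *Aldh16a1*, with differences from 0.027 to 0.036, and 172 genes had one under 0.1. No gene came under 0.1 of *Thada*.

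Genes of related RNA modification were compared as lists. Between conditions, 0 of 66 tested genes in the 6 lists of RNA 2′-O-methyltransferases and tRNA modification enzymes were called. This held with and without the block in edgeR and with DESeq2. Of all tested genes, edgeR called 0.0% without the block and 0.152% with it. Without the block, 0 of the 66 had an unadjusted p under 0.05 in edgeR, against 0.807% of all tested genes. With the block 5 did (7.58%, against 10.4% of all tested genes). The log2 fold changes of the 66 genes ranged from -0.38 for *Alkbh1* to 0.30 for *Trmt44*, with a median of 0.00. The largest in each list, without the block, were *Trmt44* and *Trmt13* (-0.22) of the RNA 2′-O-methyltransferases, *Dalrd3* (0.15) and *Mettl2* (-0.10) for the first base of the loop, *Alkbh1* and *Mocs3* (0.21) for the wobble base, *Lcmt2* (0.23) and *Tyw3* (0.22) for wybutosine, *Gon7* (-0.24) and *Trp53rkb* (-0.24) for the adenosine after the anticodon, and *Trmt11* (-0.32) and *Trmt1l* (-0.09) of the methyltransferases acting elsewhere. Between replicate 3 and the others, 11 of the 66 were called lower and 9 higher (30.3%, near the 31.1% of all tested genes), with a median of -0.08. Of 10 tested RNA 2′-O-methyltransferases, *Ftsj3* (-0.84) was called lower in replicate 3 and *Trmt13* (0.94) higher. Among 4 genes for base methylation at the loop position that FTSJ1 modifies with THADA, 0 passed the 1.5-fold limit. An unadjusted p under 0.05 in edgeR was found for 3 (75.0%, near the 71.1% of all tested genes). These were *Dalrd3* at -0.58, *Mettl6* at -0.49 and, named after its value was seen, *Mettl2* at 0.47. DESeq2 also called 0. Of 18 tested genes for wobble base modification, *Nsun3* (-0.77), *Mocs3* (-0.82) and *Adat3* (-0.98) were lower and *Alkbh1* (0.59) was higher. Of 6 enzymes of wybutosine synthesis after the anticodon, *Trmt12* (-1.42) and *Lcmt2* (-0.89) were lower. Of 12 genes for the adenosine after the anticodon, *Trit1* (1.25) and *Osgep* (0.64) were higher and *Trp53rkb* (-0.91) was lower. Of 16 tRNA methyltransferases acting elsewhere, 5 were called higher and 4 lower, and the 5 with the lowest p were *Trmt1* (0.87), *Trmt2b* (0.66), *Mettl1* (-0.92), *Trmt10a* (1.22) and *Trmt2a* (-0.63). *Henmt1* was under the filter and *Trmt61b* was not analysed here.

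Of 5 genes for proteins that the study assayed with THADA, 4 were tested, and 0 were called between conditions (0 at an unadjusted p under 0.05, and 0 in DESeq2), where the log2 values furthest from 0 without the block were *Casp8* (-0.15) and *Ryr2* (-0.13). In replicate 3, where 31.1% of all tested genes were called, 2 of these 4 were called. They were *Ryr2* (-1.35), a calcium release channel, and *Fadd* (-1.62), an adaptor of death receptors, both lower. Of 8 tested β-cell markers, 4 were called in replicate 3, also to be read against that 31.1%. *Ins1* (0.82) was higher, and *Pdx1* (-1.03), *Mafa* (-0.61) and *Pcsk1* (-0.81) were lower. Whether either list was called more often than other tested genes was not tested. Whether these changes are linked to the drop of *Wdr6* was not tested. The markers of other cell types called in replicate 3 were 4 of the 5 tested (80.0%), against 31.1% of all tested genes. They were *Sst* (-1.14) and *Krt19* (-0.83), lower, and *Ppy* (0.70) and *Col1a1* (1.28), higher. *Krt19* had between 6 and 42 counts per library and an adjusted p of 0.0454, and DESeq2 did not call it (-0.80, adjusted p = 0.196). Between conditions 0 markers were called in edgeR with or without the block or in DESeq2, and the largest log2 fold changes were those of *Nkx6-1* (0.14) and *Mafa* (0.13) among the β-cell markers and of *Krt19* (1.79) and *Ppy* (0.34) among the others. *Krt19*, a duct marker, was the one with an unadjusted p under 0.05 without the block, at 0.521, 0.524 and 0.339 CPM in control and 2.37, 1.5 and 1.05 CPM in *Thada*-activated libraries. With the block *Krt19* had 1.78 (unadjusted p = 0.000131, adjusted p = 0.0548 in edgeR) and *Ppy* 0.33 (unadjusted p = 0.00301, adjusted p = 0.213 in edgeR), the 2 of 5 tested markers of other cell types with an unadjusted p under 0.05 there.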

How the data were processed

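RNA of 3 control and 3 *Thada*-activated MIN6 libraries was analysed. Per the labels, the authors used Bowtie2, RSEM and DESeq2 with GRCm38, and the deposited values are estimated counts per gene, without normalization. The authors also deposited FPKM, scaled by length and library size, and TPM, which the authors scaled to an equal sum per library. Their table holds log2 fold changes, p-values and q-values of their own comparison, which were not used. Counts were rounded, filtered by filterByExpr, normalized by TMM and tested in R 4.3.3 with edgeR 4.0.16 (quasi-likelihood, robust), with Benjamini-Hochberg adjustment over all tested genes. Alternatives used DESeq2 1.42.0 and limma 3.58.1, no filter or at least 10 counts in every library, library sizes without the top 20 genes, FPKM with a pseudocount of 1 or 0.1, and each library left out. The edgeR tests of condition and of replicate 3 were tried on simulated data. For the test of condition, the simulated counts held no replicate 3 effect and had less spread than these libraries. They therefore do not show how that test performs here. Annotation came from GENCODE M21 and promoter windows from RefSeq.

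The replicate numbers in the labels were checked as pairs. After the mean of each condition was removed, the same-numbered control and *Thada*-activated libraries were correlated across genes. The values were 0.746 (replicate 1), 0.740 (replicate 2) and 0.895 (replicate 3). Crossing replicates 1 and 2 gave 0.769 and 0.770, above their same-numbered values, so these 2 are not separated from each other. The check thus matched replicate 3 alone, and replicates 1 and 2 were paired by their numbers only. No 2 libraries of a condition were duplicates by a chi-square test on counts.

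The named genes are the members, their neighbours in the authors' table, the 5 genes with the most similar profile to each, and of each list the called genes up to 5 by p-value or otherwise the 2 with the largest change. The members and lists were chosen with earlier results of these data known, and the contrast of replicate 3 was too. Genes left out of the wobble base and β-cell marker lists and of their counts are not reported here.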

Additional observations from a re-analysis of the deposited data

Results flagged for a closer look

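The change of *Thada* between conditions was larger in replicate 3 than in replicates 1 and 2 and had an adjusted p under 0.05 in the interaction test. The interaction was 0.52 on the log2 scale (edgeR over 12516 genes, standard error 0.13, adjusted p = 0.00935), from log2 differences of 1.05, 0.96 and 1.56 in replicates 1, 2 and 3. DESeq2 gave 0.52 with a standard error of 0.22, an unadjusted p of 0.017 and no adjusted p. With 1 library per condition in replicate 3, the spread comes from replicates 1 and 2 alone, so these p-values do not show that the change differs by replicate, and a library effect and an effect of the replicate cannot be told apart.

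Other named genes had an adjusted p under 0.05 in the same interaction test of edgeR, with the same limit. *Gon7*, of the tRNA adenosine list, had -0.82. *Plekhh2*, the neighbour of *Thada*, had 0.50. The β-cell genes *Iapp* and *Pcsk1* had 0.42 and 0.38, and *Ins2* and *Mafa* had -0.40 and -0.46.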

How the results depend on the processing

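Between conditions, the call of *Thada* depended on the model. Without a block its log2 fold change was called by DESeq2 (1.13) and by none of the other planned fits, and with each library left out it ranged from 0.93 to 1.26. It was called with the replicate block (1.15) and in fits chosen after seeing the data: the block with DESeq2 (1.16), the block without pair 1, 2 or 3 (1.22, 1.26 and 0.99), the first 2 replicates alone (0.99), a term for replicate 3 (1.15) and the block with *Wdr6* and *Dalrd3* summed (1.15). The number of called genes moved with it from 0 to 5 with DESeq2, 19 with the replicate block, 20 with the block and DESeq2, 43, 18 and 70 with the block without pair 1, 2 or 3, 68 in the first 2 replicates alone, 42 with a term for replicate 3 and 19 with the block and the summed pair. The block changed no other call of a member or a list.

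With each library left out, *Ftsj1* ranged from -0.01 to 0.19 and *Wdr6* from -0.18 to 0.38 between conditions. *Ftsj1* turned to -0.01 without control replicate 3 and without *Thada*-activated replicate 2, and *Wdr6* turned to -0.18, -0.06 and -0.07 without control replicate 3 and *Thada*-activated replicates 1 and 2. No fit called either. In the contrast of replicate 3, *Thada* ranged from -0.73 to -0.21 with each library left out, and passed the 1.5-fold limit only without *Thada*-activated replicate 3 (-0.73). The cause of these shifts was not tested. *Wdr6* was called in every fit of that contrast and *Ftsj1* in none. Of the 4 genes for base methylation at the first base of the anticodon loop, 0 to 2 were called in replicate 3 with each library left out. The called markers of other cell types went from 4 to 3 in DESeq2, where *Krt19* (-0.80) was lost, and to 3 without control replicate 1 or 2 or *Thada*-activated replicate 1 or 3. The called β-cell markers went from 4 to as many as 6 with a library left out. The interaction of *Thada* was 0.52 with DESeq2 size factors. As paired differences within the block, the log2 ratios of *Ftsj1* and *Wdr6* to *Thada* were -1.09 and -1.05 (exact sign-flip permutation test, p = 0.25 for both), and in replicates 1 and 2 alone, chosen after seeing the data, they were -0.86 and -0.88. Depth differed little, from 17166511 to 17727004 counts per library.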
